A study of Mus musculus with 6 samples.

Results

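The genes described here are 9 that mark monocytes, cells newly derived from monocytes, and neutrophils: *Ly6c2*, *Plac8*, *Vcan*, *S100a4*, *S100a6*, *S100a8*, *S100a9*, *Lyz1* and *Lyz2*. They were chosen by symbol from the 24061 gene symbols of a raw count table, all 9 had a row, and all 9 were among the 13348 genes with enough counts to be tested. The table holds 6 RNA-seq libraries of macrophages from the inguinal mammary glands of FVB/N mice, sorted by flow cytometry as CD45+CD11b+F4/80+ cells and split by Lyve-1, the hyaluronan receptor that the study used to tell a stromal subset from the other macrophages. There were 3 Lyve-1- and 3 Lyve-1+ libraries, and each came from the pooled cells of 4 mice. In each subset, library 1 was from 6-week-old mice and libraries 2 and 3 from 10-week-old mice, so each age effect rests on 1 pool per subset at 6 weeks.

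Classical monocytes leave the bone marrow, circulate, and enter tissues, where they lose surface Ly6C as they become macrophages. Neutrophils are short-lived granulocytes whose cytosol is packed with the S100a8-S100a9 dimer, known as calprotectin, and whose granules carry proteases and antimicrobial proteins. Monocytes share several of these products, and lysozyme stays abundant in most macrophages, so the members span genes of immature and of settled myeloid cells. The question that the comparison addressed was whether either macrophage subset held more of these transcripts. In bulk libraries such as these, a higher share of cells of a type and more RNA per cell cannot be told apart.

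Library totals ran from 6478007 to 21406839 counts, and a count of 0 allowed up to 0.144 to 0.437 CPM (counts scaled to a common depth by TMM, the unit of every level below unless stated). Those limits and the intervals given for shares cover counting error only. *Lyve1* checked the labels, with 1.43 to 7.44 CPM in the Lyve-1- libraries and 597 to 2352 CPM in the Lyve-1+ libraries. Lyve-1- library 3 stood apart, since 651 of 1110 olfactory receptor genes had at least 1 count there, against 4 to 370 in the other libraries. Lyve-1+ library 3 stood apart in fibroblast markers, whose 11 genes summed to 7188 CPM there, against 1049 to 2457 CPM elsewhere. The 8 macrophage markers reported (*Emr1*, which encodes F4/80, *Itgam*, which encodes CD11b, *Ptprc*, which encodes CD45, *Cd68*, *Csf1r*, *Cd14*, *Fcgr1* and *Mertk*) were counted in every library, and they summed to 4370 to 6994 CPM.

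None of the 9 genes was called different between the subsets. A call needed an adjusted p under 0.01 in edgeR's quasi-likelihood test across all 13348 genes, with a log2 fold change beyond 1 but within 10 in either direction, and 15 genes (0.112%) met it. *Lyve1*, the gene of the sort marker, did not meet it, at a log2 fold change of 7.93 and an adjusted p of 0.0254 by edgeR. By DESeq2 the adjusted p of *Lyve1* was 2.226e-18. A gene could thus differ widely between the subsets and not be called. At an adjusted p under 0.05, again 0 of the 9 members passed, against 84 genes (0.629%). Under some alternative settings 1 or more members did pass that threshold. *S100a9* passed by DESeq2 (adjusted p = 0.0264) and, by edgeR, without Lyve-1+ library 2 (0.0292). With no filter on low counts *S100a9* and *Lyz1* passed (7.175e-05 and 0.0437 by edgeR). With the library number as a block *S100a9* and *S100a4* passed (0.0156 and 0.0278 by edgeR). At an unadjusted p under 0.05, 2 members were higher in the Lyve-1+ libraries (*S100a8* and *S100a9*) and 2 were lower (*S100a4* and *Lyz1*). Over all genes tested, 560 (4.2%) were higher and 467 (3.5%) lower at that threshold. The same 4 members had subsets that lay apart, 2 of 9 higher and 2 of 9 lower, where 1044 genes (7.82%) lay apart as higher and 867 (6.5%) as lower. The median log2 fold change of the members was -0.05, beside -0.01 over all genes tested.

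**Figure D1:**
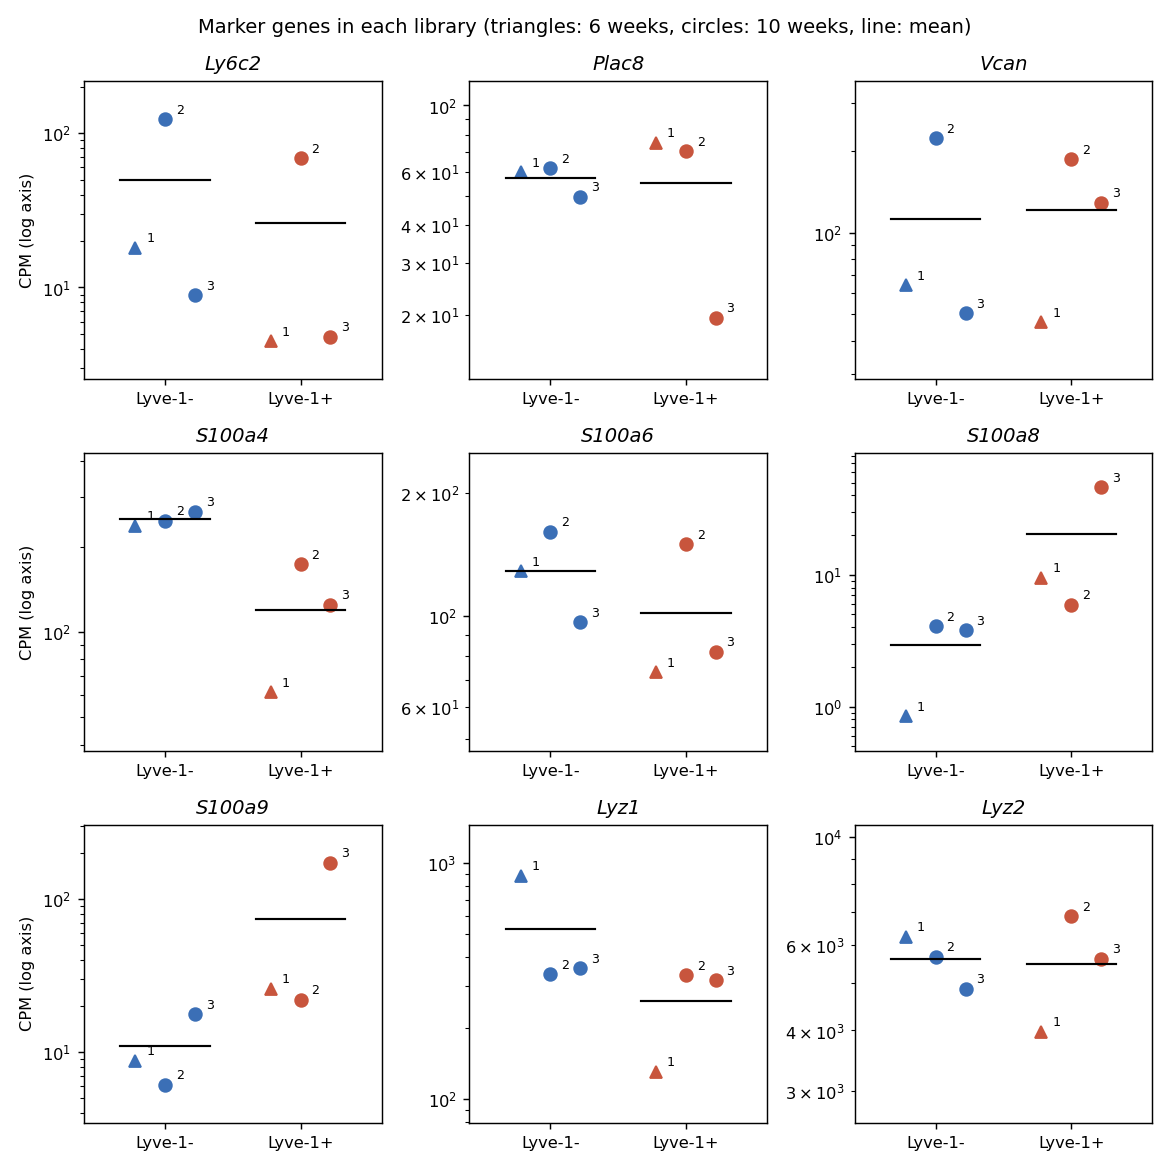
Each panel plots 1 gene in the 6 libraries, as CPM on a log axis, with Lyve-1- libraries in blue, Lyve-1+ libraries in red, the library number beside each point, triangles for 6 weeks, circles for 10 weeks and a line at the mean. *S100a8* and *S100a9* have every red point above every blue one, *S100a4* and *Lyz1* have every red point below every blue one, and the other 5 genes overlap.

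*S100a8* and *S100a9*, which encode the 2 chains of calprotectin, were the members with the largest fold changes. *S100a8* was at 0.840, 4.09 and 3.79 CPM in Lyve-1- libraries 1, 2 and 3 and at 9.52, 5.94 and 46.0 CPM in Lyve-1+ libraries 1, 2 and 3. *S100a9* was at 8.82, 6.13 and 17.8 CPM in the Lyve-1- libraries and at 26.0, 22.04 and 173 CPM in the Lyve-1+ libraries. Every Lyve-1+ library lay above every Lyve-1- library for both genes, and Lyve-1+ library 3 lay far above the other 2 of its subset.

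The mean of *S100a8* was 2.91 ± 1.80 CPM (SD, n = 3 pools) in Lyve-1- macrophages and 20.5 ± 22.2 CPM (SD, n = 3) in Lyve-1+ macrophages, for which the log2 fold change came to 2.82 (standard error, SE, 1.12, adjusted p = 0.494 by edgeR). For *S100a9* the means were 10.9 ± 6.10 and 73.7 ± 86.0 CPM (SD, n = 3 each), and the log2 fold change was 2.76 (SE 0.79, adjusted p = 0.234 by edgeR). The SD in the Lyve-1+ subset was thus larger than the mean for both genes. Without Lyve-1+ library 3 the log2 fold changes were 1.39 for *S100a8* and 1.13 for *S100a9* (edgeR adjusted p = 1.00 for both), so the size of both differences rested on that library. *S100a9* passed the call rule only in the fit with no filter on low counts (log2 fold change 2.77, edgeR adjusted p = 7.175e-05), which called 188 genes in all. Its adjusted p over the alternatives ran from 7.175e-05 to 1.00.

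Both genes rested on few counts in the Lyve-1- libraries. *S100a8* had 10, 46 and 26 raw counts there and 125, 124 and 365 in the Lyve-1+ libraries, and *S100a9* had 105, 69 and 122 against 341, 460 and 1373. The 2 genes were read in a similar ratio in the Lyve-1+ libraries, where *S100a8* made up 26.8%, 21.2% and 21.0% of their joint counts in libraries 1, 2 and 3. In the Lyve-1- libraries that share was 8.70% (95% Wilson interval 4.79 to 15.3), 40% (31.5 to 49.1) and 17.6% (12.3 to 24.5), and the intervals of libraries 1 and 2 do not overlap. The mean share was 22.1% ± 16.1 (SD, n = 3) in Lyve-1- macrophages and 23.0% ± 3.30 (SD, n = 3) in Lyve-1+ macrophages, which overlap.

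*S100a8* (chromosome 3 of mm10, 90668978 to 90670035, plus strand) and *S100a9* (90692632 to 90695721, minus strand) lie 22.6 kb apart and are read in opposite directions, in the S100 gene cluster that also holds *S100a4* (90603771 to 90606045) and *S100a6* (90612882 to 90624181). Since both genes were higher in every Lyve-1+ library, bases upstream of their RefSeq starts are shown, on the coding strand and in build GRCm38.p6. Capitals mark GAGGAA or its reverse complement TTCCTC, the core that the myeloid factor PU.1 binds, and TTGCNNAA on either strand, the pattern of C/EBP factors. The *S100a8* stretch is chr3:90668821-90668977 and stops at the earliest start that GENCODE gives, 157 bases long, and the *S100a9* stretch is chr3:90695722-90695971, 250 bases long.
S100a8: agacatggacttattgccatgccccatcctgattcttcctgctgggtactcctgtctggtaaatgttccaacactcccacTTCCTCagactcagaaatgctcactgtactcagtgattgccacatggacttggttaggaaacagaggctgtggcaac
S100a9: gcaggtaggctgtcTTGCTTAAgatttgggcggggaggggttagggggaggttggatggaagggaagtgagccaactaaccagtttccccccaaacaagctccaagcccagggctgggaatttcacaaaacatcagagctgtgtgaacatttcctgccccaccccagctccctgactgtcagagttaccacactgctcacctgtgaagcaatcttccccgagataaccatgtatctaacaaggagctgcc

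The full 250-base windows of *S100a8* and *S100a9* were identical in 49.8% of the columns of a global alignment. Over 32851 RefSeq windows of 250 bases, 23.3% held GAGGAA on either strand and 9.56% held TTGCNNAA on either strand, and neither pattern can lie wholly inside the other. Of the 11 windows of the 9 members, 4 held the first and 3 the second. *Ly6c2* and *Plac8* have 2 windows each. Those of *Ly6c2* (75111972 to 75112221 and 75111938 to 75112187) overlap, and the same GAGGAA lies in both, so the windows are not all separate promoters. The bases of the *S100a8* window that lie from the earliest GENCODE start on, next to the RefSeq start, are left out above. The full *S100a8* window held the first pattern 2 times, and the last of these lies in the part left out. A match says only that these letters occur in the window.

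The genes of the known receptors of calprotectin were tested as a list of 5, of which 4 had a positive and 1 a negative log2 fold change, with a median of 0.17. None passed an adjusted p of 0.05. The largest positive value was that of *Tlr4*, the endotoxin receptor, which was at 26.8, 42.4 and 12.4 CPM in Lyve-1- libraries 1, 2 and 3 and at 79.4, 89.0 and 66.4 CPM in the Lyve-1+ libraries. Its log2 fold change was 1.52 (SE 0.46, adjusted p = 0.242 by edgeR), without overlap of the subsets. The largest negative value was that of *Emb*, which encodes embigin, at -0.69 (SE 0.34, adjusted p = 0.699 by edgeR).

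The neutrophil genes as a list did not stand on one side. Of 20 genes, 19 had a row and 11 were tested, 5 with a positive and 6 with a negative log2 fold change, and the median was -0.34. At an unadjusted p under 0.05, 2 of the 11 were higher and 0 lower in Lyve-1+ cells, beside 4.2% and 3.5% of all genes tested. None of the 11 passed an adjusted p of 0.05. With no filter on low counts, a fit that called 188 genes, the 2 higher genes did pass it. *Cxcr2* was then at an adjusted p of 0.0332 and *Mmp9* at 0.0152 by edgeR. *Cxcr2*, the chemokine receptor that draws neutrophils into tissue, was at 0, 0 and 2.48 CPM in the Lyve-1- libraries and at 4.50, 9.92 and 49.1 CPM in the Lyve-1+ libraries. Its fitted log2 fold change was 4.73 (SE 1.78, adjusted p = 0.458 by edgeR). That value was 4.15 and 4.135 without Lyve-1- libraries 1 and 2, which were at 0. It was 11.1 without Lyve-1- library 3, the Lyve-1- library that held counts of it, and 3.14 without Lyve-1+ library 3.

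*Mmp9*, a secreted gelatinase, had the highest mean level of the list over the 6 libraries, at 81.4, 26.3 and 91.4 CPM in Lyve-1- libraries 1, 2 and 3 and at 229, 164 and 113 CPM in the Lyve-1+ libraries. The subsets did not overlap, with a log2 fold change of 1.35 (SE 0.43, adjusted p = 0.298 by edgeR), and here Lyve-1+ library 3 was the lowest of its subset. *Cd177*, a surface protein of neutrophils, had the most negative value (log2 fold change -3.45, SE 1.96, adjusted p = 0.839 by edgeR), and 44.4 CPM in Lyve-1- library 2 set it apart from 0 to 6.56 CPM elsewhere. Without that library the value was -1.08.

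Several granule genes that define maturing neutrophils were at 0 in most libraries, and those named here were picked after their values were seen. *Elane*, neutrophil elastase, was at 0 in 5 libraries and at 0.0762 CPM in Lyve-1+ library 1. *Camp*, which encodes cathelicidin, was at 0 in 5 libraries and at 2.48 CPM in Lyve-1- library 3, and *Prtn3* and *Ctsg*, 2 further granule proteases, were at 0 in 4 libraries each, with up to 0.287 and 5.69 CPM in the others. Other granule genes were counted more widely, such as *Ltf*, which encodes lactoferrin, at 0.504 to 17.5 CPM and *Lcn2*, which encodes an iron-withholding lipocalin, at 3.35 to 27.1 CPM. In all, 6 of the 19 genes were at 0 in 4 or more libraries. *Ly6g* was not analysed here.

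The summed level of the neutrophil list was 294.5 to 399 CPM in the Lyve-1- libraries and 359, 370 and 714 CPM in Lyve-1+ libraries 1, 2 and 3. The high value of library 3 came with *Csf3r*, the receptor of granulocyte colony-stimulating factor, and *Il1r2*, a decoy receptor of interleukin-1, both named after their values were seen. *Csf3r* was at 216 CPM there and at 41.9 to 86.4 CPM in the other 5 libraries. *Il1r2* was at 189 CPM there and at 27.0 to 89.8 CPM in the others. Lyve-1+ library 3 was thus the highest for *S100a8*, *S100a9*, *Csf3r* and *Il1r2*, and likewise for *Cxcr2* and *Mmp8*, a neutrophil collagenase at 15.0 CPM there and 0 to 10.8 CPM elsewhere. Other genes of the list did not share this, since *Ltf* was lowest there, *Mpo*, *Camp*, *Ngp* and *Cd177* were at 0 there, and *Trem1* was at 110.2 CPM there but at 130.2 CPM in Lyve-1- library 2. That library also held the fibroblast markers at 7188 CPM in sum. The part of these levels in the *S100a8* and *S100a9* differences was not tested.

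**Figure D2:**
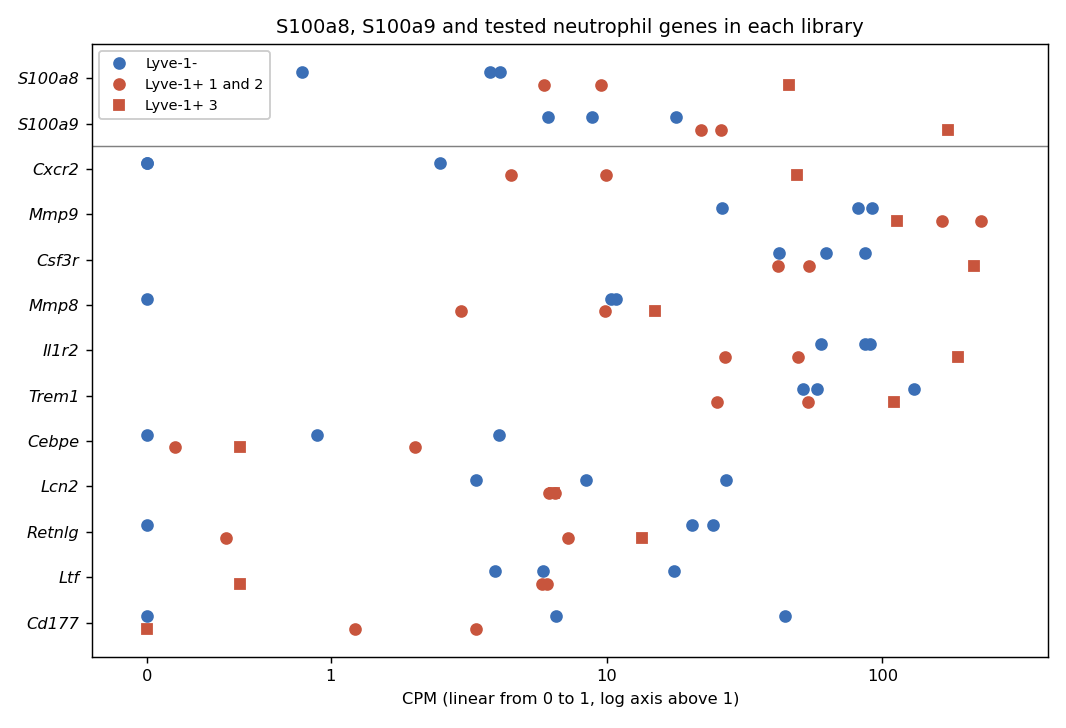
*S100a8*, *S100a9* and the 11 tested neutrophil genes, ordered by log2 fold change, are plotted by CPM on an axis that is linear from 0 to 1 and logarithmic above, with Lyve-1- libraries in blue, Lyve-1+ libraries 1 and 2 as red circles and Lyve-1+ library 3 as a red square. The square is the highest point for *S100a8*, *S100a9*, *Cxcr2*, *Csf3r*, *Il1r2* and *Mmp8* and the lowest for *Ltf*, and *Cxcr2* and *Mmp9* are the neutrophil genes without overlap.

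*S100a4* and *S100a6*, small calcium-binding proteins found in moving myeloid cells and in fibroblasts, are thought to act on the cytoskeleton and on cell growth. *S100a4* was at 237, 247 and 266 CPM in Lyve-1- libraries 1, 2 and 3 and at 61.3, 173 and 125 CPM in the Lyve-1+ libraries. The Lyve-1- values were the tightest of any member, and all 3 Lyve-1+ libraries lay below them. The means were 250 ± 14.3 and 120 ± 56.2 CPM (SD, n = 3 each), and the log2 fold change was -1.06 (SE 0.34, adjusted p = 0.294 by edgeR). Between same-numbered libraries the Lyve-1+ level was 0.258, 0.702 and 0.470 times the Lyve-1- level. Without Lyve-1+ library 1 the log2 fold change was -0.72 (edgeR adjusted p = 0.850), and without Lyve-1+ library 2 it was -1.44 (adjusted p = 0.0614). With the library number as a block it was -1.18 (edgeR adjusted p = 0.0278).

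Of the 50-base windows of *S100a4* transcripts, 47.4% also occur in *Gm42674*, a GENCODE gene not used here, and reads from those windows could not be assigned to *S100a4* alone by sequence.

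*S100a6* was at 129, 161 and 96.9 CPM in the Lyve-1- libraries and at 73.1, 150.1 and 81.9 CPM in the Lyve-1+ libraries. The subsets overlapped, and the log2 fold change was -0.34 (SE 0.35, adjusted p = 1.00 by edgeR). In both subsets library 2 was the highest for *S100a6*. In Lyve-1+ library 3, where the fibroblast markers were highest, *S100a4* and *S100a6* stood at 125 and 81.9 CPM, below every Lyve-1- library.

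The other S100 genes gave little to compare. Of 12 listed, 5 passed the filter, none of them at an unadjusted p under 0.05, with a median log2 fold change of 0.19, and 5 were at 0 in 4 or more libraries. *S100a1* had the largest positive value (log2 fold change 1.25, SE 0.62, adjusted p = 0.691 by edgeR), with 4.98 to 25.9 CPM in the Lyve-1- libraries and 35.1 to 41.5 CPM in the Lyve-1+ libraries, without overlap. *S100a11* had the only negative value (-0.34, SE 0.33, adjusted p = 1.00 by edgeR).

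*Lyz1* and *Lyz2* encode lysozyme, which cuts the cell walls of bacteria, and *Lyz2* is the copy that myeloid cells use. *Lyz2* was at 6244, 5678 and 4879 CPM in Lyve-1- libraries 1, 2 and 3 and at 3978, 6885 and 5617 CPM in the Lyve-1+ libraries, which overlap. The log2 fold change was -0.03 (SE 0.23, adjusted p = 1.00 by edgeR), the smallest of the members and with the smallest error. *Lyz2* alone took 0.383% to 0.671% of all counts in a library. Its means were 5600 ± 686 and 5493 ± 1457 CPM (SD, n = 3 each).

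*Lyz1*, the copy best known from Paneth cells of the gut, was at 885, 338 and 358 CPM in Lyve-1- libraries 1, 2 and 3 and at 130.4, 335 and 319 CPM in the Lyve-1+ libraries. The subsets lay apart, but the lowest Lyve-1- value and the highest Lyve-1+ value, 338 and 335 CPM, were nearly the same. The means were 527 ± 310 and 262 ± 114 CPM (SD, n = 3 each), and the log2 fold change was -1.01 (SE 0.43, adjusted p = 0.580 by edgeR). The difference was larger between the 6-week libraries, where the Lyve-1+ level was 0.147 times the Lyve-1- level, against 0.992 and 0.892 times in the 10-week libraries numbered 2 and 3. In the 10-week libraries alone the log2 fold change was -0.09, and it was -0.42 without Lyve-1- library 1 (edgeR adjusted p = 1.00 for both).

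The change of the *Lyz1* difference with age was itself tested, as the interaction of subset and age. It came to a log2 value of 2.67 (SE 0.54, adjusted p = 0.322 by edgeR), and that of *Lyz2* to 0.89 (SE 0.40, adjusted p = 0.976 by edgeR). These were the 2 of 9 members at an unadjusted p under 0.05, against 613 of 13348 genes (4.59%), and neither passed after adjustment over all genes. *Lyz2* was lower in the Lyve-1+ than in the Lyve-1- library at 6 weeks (0.637 times) and higher in both numbered pairs at 10 weeks (1.21 and 1.15 times). With 1 pool per subset at 6 weeks, age and pool cannot be told apart.

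*Lyz1* (chromosome 10 of mm10, 117287797 to 117292868, minus strand) and *Lyz2* (117277331 to 117282321, minus strand) are neighbouring copies 5.47 kb apart. Their longest coding transcripts were identical in 92% of the alignment columns, and 16.1% of the 50-base windows of *Lyz1* transcripts also occur in *Lyz2*, so reads from those stretches cannot be assigned to 1 copy by sequence. In turn, 15.4% of the windows of *Lyz2* also occur in *Lyz1*. *Lyz2* had 33467 to 143703 raw counts in a library and *Lyz1* 1712 to 10533. The values of *Lyz1*, the copy with fewer counts, could thus be changed by more than the share of its own windows. The part of *Lyz2* reads in the *Lyz1* counts was not tested. How the authors' counting treated such reads is not given in the sources used here.

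Bases upstream of the RefSeq starts of the 2 copies are shown because *Lyz1* and *Lyz2* gave different values in the same libraries. The *Lyz1* stretch is chr10:117292869-117293118, 250 bases long, and the *Lyz2* stretch is chr10:117282322-117282522, 201 bases long up to the earliest GENCODE start, both on the coding strand of GRCm38.p6 from RefSeq and with the same motifs in capitals.
Lyz1: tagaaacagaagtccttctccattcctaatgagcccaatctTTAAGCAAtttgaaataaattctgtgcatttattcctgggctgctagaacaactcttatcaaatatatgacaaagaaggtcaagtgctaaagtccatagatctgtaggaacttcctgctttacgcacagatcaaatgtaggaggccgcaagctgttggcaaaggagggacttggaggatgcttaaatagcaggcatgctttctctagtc
Lyz2: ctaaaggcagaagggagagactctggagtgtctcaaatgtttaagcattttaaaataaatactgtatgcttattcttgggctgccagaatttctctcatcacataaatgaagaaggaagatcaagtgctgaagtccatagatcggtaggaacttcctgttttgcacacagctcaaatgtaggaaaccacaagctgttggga
The full 250-base windows were identical in 78.8% of the alignment columns. The *Lyz1* window held TTGCNNAA on the reverse strand once and the *Lyz2* window did not hold it.

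The share of *Lyz1* in the joint counts of the 2 copies does not depend on the scaling of a library, but it does depend on how reads that match both copies were assigned. It was 12.4%, 5.61% and 6.83% in Lyve-1- libraries 1, 2 and 3 and 3.18%, 4.64% and 5.38% in the Lyve-1+ libraries. The 95% Wilson interval was 12.2 to 12.6 for the highest share and 3.03 to 3.33 for the lowest. Every Lyve-1+ share lay below every Lyve-1- share. The means were 8.29% ± 3.62 and 4.40% ± 1.12 (SD, n = 3 each), with an exact two-sided permutation p of 0.1, the smallest that 3 against 3 libraries allow. The gap between the nearest values, 5.38% and 5.61%, was small beside the spread within either subset.

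**Figure D3:**
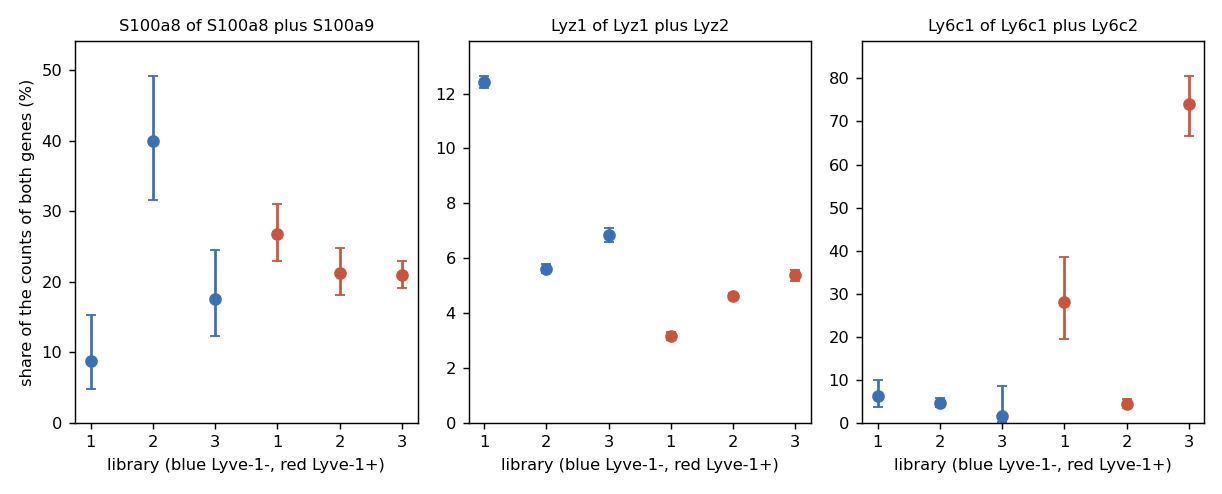
The share that 1 gene takes of the counts of a pair of genes is plotted in percent for each library, with Lyve-1- libraries 1 to 3 in blue, Lyve-1+ libraries 1 to 3 in red and bars for the 95% Wilson interval. The *S100a8* share overlaps between the subsets, the *Lyz1* share lies lower in all 3 Lyve-1+ libraries, and the *Ly6c1* share is highest in Lyve-1+ library 3, at 74.2%.

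Of the 8 other lysozyme-like genes, only *Lalba*, the milk protein alpha-lactalbumin, passed the filter. It was at 34.7 CPM in Lyve-1- library 1 and at 0 to 5.26 CPM in the other libraries, and the other 7 genes were at 0 in 4 or more libraries each.

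*Ly6c2* encodes the Ly6C surface protein by which classical monocytes are recognised. It was at 18.1, 123 and 8.89 CPM in Lyve-1- libraries 1, 2 and 3 and at 4.50, 68.9 and 4.79 CPM in the Lyve-1+ libraries. Library 2 was the highest in both subsets, by 13.8-fold over the lowest library in Lyve-1- macrophages and by 15.3-fold in the Lyve-1+ subset. The means were 50.03 ± 63.5 and 26.1 ± 37.1 CPM (SD, n = 3 each), and the log2 fold change was -0.94 (SE 1.39, adjusted p = 1.00 by edgeR). Between same-numbered libraries the Lyve-1+ level was 0.249, 0.560 and 0.538 times the Lyve-1- level, so it was lower in all 3, while the spread among the pools of 1 subset was larger than any of these differences. Without Lyve-1- library 2 the direction turned, with a log2 fold change of 0.96.

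*Ly6c2* (chromosome 15 of mm10, 75108158 to 75111970, minus strand) has a close copy, *Ly6c1*, 59.3 kb away, with 95% identical alignment columns between the longest coding transcripts. *Ly6c1* is also known from endothelium. It took 6.11%, 4.61% and 1.61% of the joint counts in Lyve-1- libraries 1, 2 and 3 and 28.0%, 4.32% and 74.2% in the Lyve-1+ libraries. In Lyve-1+ library 3 the joint counts were thus mostly *Ly6c1*, at 13.7 CPM beside 4.79 CPM of *Ly6c2*. Over all annotated transcripts, 13.9% of the 50-base windows of *Ly6c2* also occur in *Ly6c1*, and 21.5% of those of *Ly6c1* occur in *Ly6c2*. The figure for the longest coding transcripts alone was not computed. The *Ly6c1* shares depend on how reads that match both genes were assigned.

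Of the 8 other Ly6 genes, 7 had a row and 4 were tested, 3 with a positive and 1 with a negative log2 fold change. *Ly6e*, an interferon-induced member of the family, was the one that passed an adjusted p of 0.05. It was at 239, 350 and 221 CPM in Lyve-1- libraries 1, 2 and 3 and at 1051, 691 and 500.5 CPM in the Lyve-1+ libraries, a log2 fold change of 1.47 (SE 0.31, adjusted p = 0.0438 by edgeR), without overlap. That adjusted p lay just under the threshold and was above it without Lyve-1- library 1 (0.0590), Lyve-1- library 3 (0.217) or Lyve-1+ library 1 (0.148), and in the 10-week libraries alone (0.560). *Ly6a*, known as Sca-1, had the largest value (1.76, SE 1.05, adjusted p = 0.876 by edgeR), and *Ly6d* the most negative (-2.44, SE 2.51, adjusted p = 1.00 by edgeR).

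*Plac8*, a small cysteine-rich protein found in immature myeloid cells, was at 59.9, 61.9 and 49.7 CPM in Lyve-1- libraries 1, 2 and 3 and at 75.2, 70.3 and 19.7 CPM in the Lyve-1+ libraries. Lyve-1+ library 3 was the lowest of all 6 and the other 2 Lyve-1+ libraries were the highest. The log2 fold change was -0.05 (SE 0.47, adjusted p = 1.00 by edgeR), and it was 0.32 without Lyve-1+ library 3. Within the Lyve-1- subset the libraries differed by 1.25-fold at most, and within the Lyve-1+ subset by 3.83-fold. The library with the most *S100a8* and *S100a9* was thus the one with the least *Plac8*. *Plac8* lies on chromosome 5 of mm10, 100553725 to 100572245, minus strand.

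*Vcan* encodes versican, a large proteoglycan that binds hyaluronan and that classical monocytes transcribe strongly. It was at 64.1, 223 and 50.4 CPM in Lyve-1- libraries 1, 2 and 3 and at 46.7, 187 and 129 CPM in the Lyve-1+ libraries. As for *Ly6c2*, library 2 was the highest of both subsets, and the subsets overlapped. The log2 fold change was 0.10 (SE 0.62, adjusted p = 1.00 by edgeR), and its direction turned with several alternatives. *Vcan* lies on chromosome 13 of mm10, 89655312 to 89742509, minus strand. Since fibroblasts also make versican, the sum of the fibroblast markers is given beside it: 1049 to 1227 CPM in the Lyve-1- libraries and 2457, 1830 and 7188 CPM in Lyve-1+ libraries 1, 2 and 3. The part of those cells in the *Vcan* level was not tested.

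Among the binding partners, relatives and proteases of versican, 7 of 12 genes were tested, 5 with a positive and 2 with a negative log2 fold change, and the median was 0.20. *Cd44*, the main hyaluronan receptor of leukocytes, was at 1245, 1695 and 1381 CPM in Lyve-1- libraries 1, 2 and 3 and at 452, 990 and 1038 CPM in the Lyve-1+ libraries. The subsets lay apart, with a log2 fold change of -0.80 (SE 0.30, adjusted p = 0.422 by edgeR). *Adamts9*, a protease that cuts versican, had the largest positive value (1.02, SE 0.82, adjusted p = 1.00 by edgeR) and overlapped, and its value was 0.07 without Lyve-1+ library 2.

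**Figure D4:**
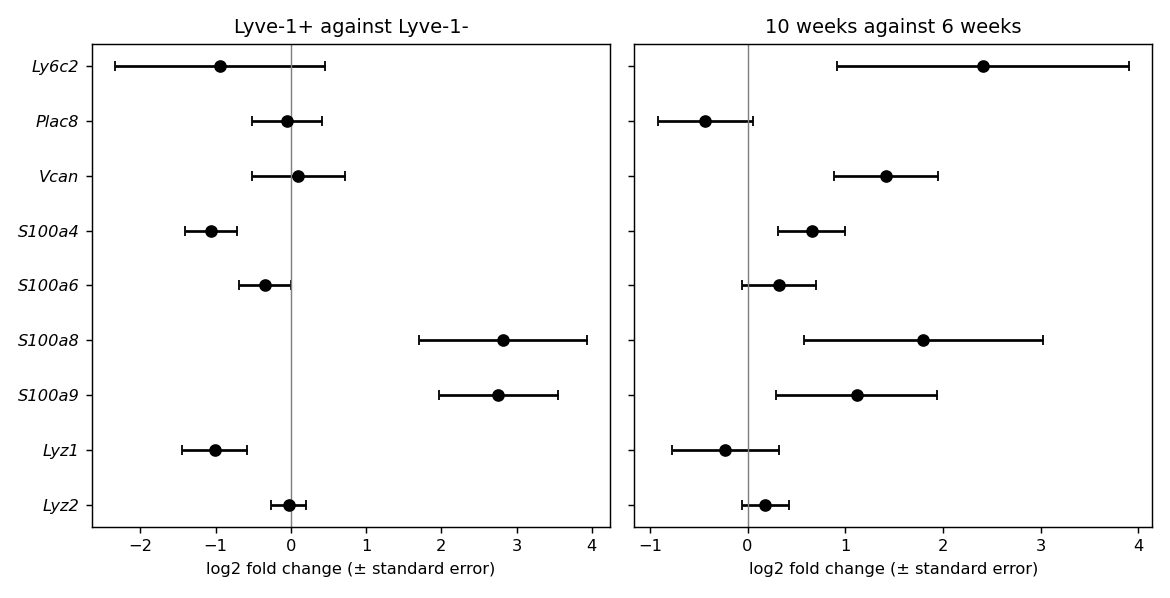
Points give the fitted log2 fold change of each gene and bars its standard error, for Lyve-1+ against Lyve-1- on the left and for 10 weeks against 6 weeks, with a term for the subset, on the right. On the left, *S100a8* and *S100a9* lie near 2.8 and *S100a4* and *Lyz1* near -1, and on the right *Ly6c2* has the largest value and the widest bar.

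Age was compared between 10 and 6 weeks in a fit that also held the subset. At an unadjusted p under 0.05, 1 of the 9 members passed, against 444 of 13348 genes (3.33%), and 0 members passed an adjusted p of 0.05. It was *Vcan*, with a log2 fold change of 1.41 (SE 0.53, adjusted p = 1.00 by edgeR), or 0.81 without Lyve-1- library 2. The value of *Ly6c2* was larger, 2.41, but so was its SE, 1.496 (adjusted p = 1.00 by edgeR), and libraries 2 were high where libraries 3 were not. That value was 1.16 and 1.11 without library 2 of the Lyve-1- and Lyve-1+ subsets, and 2.69 without Lyve-1+ library 3, the one such fit in which a member passed (adjusted p = 0.0263 by edgeR). *S100a8* and *S100a9* came to 1.80 and 1.12 (SE 1.22 and 0.82), or 0.88 and 0.12 without Lyve-1+ library 3, and the other 5 members lay between -0.43 and 0.66.

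Classical monocyte genes other than the members were not on one side. All 12 were tested, 5 with a positive and 7 with a negative log2 fold change, with a median of -0.43. At an unadjusted p under 0.05 there were 2 higher and 3 lower, beside 4.2% and 3.5% of all genes tested. *F13a1*, a clotting factor subunit found in monocytes and in resident macrophages, was the one at an adjusted p under 0.05. It was at 1303, 1144 and 745 CPM in Lyve-1- libraries 1, 2 and 3 and at 6248, 2859 and 3404 CPM in the Lyve-1+ libraries, a log2 fold change of 1.97 (SE 0.31, adjusted p = 0.0120 by edgeR), without overlap. The adjusted p was 0.0751 without Lyve-1- library 3. *Napsa*, an aspartic protease, had the most negative value (-1.33, SE 0.55, adjusted p = 0.537 by edgeR), also without overlap.

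*Ccr2*, the receptor by which monocytes leave the marrow, is named here after its values were seen. It was at 533, 564 and 295 CPM in the Lyve-1- libraries and at 173, 365 and 143 CPM in the Lyve-1+ libraries, a log2 fold change of -1.03 (SE 0.37, adjusted p = 0.386 by edgeR), with overlap, and -1.58 without Lyve-1+ library 2 (adjusted p = 0.0204). *Chil3* and *Ms4a4c*, 2 further genes of classical monocytes named after their values were seen, had the same high libraries as *Ly6c2*. *Chil3* was at 77.1 and 81.7 CPM in libraries 2 of the Lyve-1- and Lyve-1+ subsets and at 3.02 to 7.16 CPM in the other 4. *Ms4a4c* was at 180.1 and 189 CPM in libraries 2 and at 18.9 to 46.3 CPM in the other 4. For these genes the libraries numbered 2, both from 10-week-old mice, stood apart within both subsets.

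Of the 9 non-classical monocyte genes, all were tested, 6 with a positive and 3 with a negative log2 fold change, with a median of 0.14 and none at an unadjusted p under 0.05. *Cx3cr1*, the fractalkine receptor, had the most negative value (-0.81, SE 0.40, adjusted p = 0.699 by edgeR), without overlap. *Treml4* had the largest positive value (0.82, SE 0.90, adjusted p = 1.00 by edgeR).

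The macrophage markers show where the members' levels stand. Of the 8, 2 were higher and 1 lower at an unadjusted p under 0.05, beside 4.2% and 3.5% of all genes tested. None of the 8 passed an adjusted p of 0.05. *Csf1r*, the receptor of the macrophage growth factor CSF1, had the largest positive log2 fold change (0.78, SE 0.25, adjusted p = 0.280 by edgeR), and *Ptprc* the most negative (-0.62, SE 0.26, adjusted p = 0.541 by edgeR). Among genes of other cells, dendritic cell markers summed to 429 to 935 CPM in the Lyve-1- libraries and 141 to 428 CPM in the Lyve-1+ libraries, and T and NK cell markers to 126 to 180 and 25.8 to 93.6 CPM. B and plasma cell markers (3.19 to 98.3 CPM), epithelial markers (56.1 to 482 CPM), endothelial markers (73.2 to 252 CPM) and mast cell and eosinophil markers (45.0 to 249.7 CPM) overlapped between the subsets.

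Per kilobase of the longest coding transcript, which allows genes to be compared, *Lyz2* was by far the most abundant member, at 4255 ± 521 CPM per kb in Lyve-1- macrophages and 4174 ± 1107 in the Lyve-1+ subset (SD, n = 3 each). *S100a4* followed at 502 ± 28.6 and 241 ± 113 CPM per kb, *Lyz1* at 417 ± 246 and 207 ± 90.1, and *S100a6* at 176 ± 43.9 and 139 ± 57.7. *Ly6c2* (60.9 ± 77.2 and 31.7 ± 45.1 CPM per kb) and *Plac8* (46.7 ± 5.35 and 45.0 ± 25.1) came next. *S100a9* was at 21.0 ± 11.8 CPM per kb in the Lyve-1- subset, below *Plac8*, and at 142 ± 166 in Lyve-1+ macrophages. The latter mean was near that of *S100a6*, but the single libraries were not. In Lyve-1+ libraries 1, 2 and 3 *S100a9* was at 50.1, 42.5 and 333 CPM per kb and *S100a6* at 99.95, 205 and 112. *S100a8*, at 5.98 ± 3.69 and 42.15 ± 45.6 CPM per kb, was below *Vcan* in the mean of the Lyve-1- subset and above it in that of the Lyve-1+ subset, with *Vcan* at 9.06 ± 7.73 and 9.71 ± 5.66. In the Lyve-1+ subset the levels of *Ly6c2*, *Plac8* and *S100a8* did not differ beyond their spread.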

How the data were processed

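RNA-seq was measured in 6 libraries, 3 per subset. The authors deposited raw counts per gene symbol, made by mapping paired 50-base reads to mm10 with HISAT2 2.0.2 and counting with featureCounts 1.5.0 (versions from the submitters' processing notes), without normalization. The methods name a 6-week library that was removed, not analysed here.

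Counts were analysed in R 4.3.3 with edgeR 4.0.16, and DESeq2 1.42.0 was an alternative. Genes kept by filterByExpr were scaled by TMM and tested with edgeR's quasi-likelihood F test, subset as the only term, with Benjamini-Hochberg adjustment over 13348 genes. Standard errors are the absolute log2 fold change divided by the square root of F. No label says that same-numbered libraries share mice, and p-values measure the spread between pools. Positions are from GENCODE M21, and 22757 of 24061 symbols matched it directly, 916 through a RefSeq synonym and 388 not at all. Promoter windows are from RefSeq, protein sequences were not used, and symbols matched for all 9 members.

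The members and gene lists were chosen with earlier results of these data known. Named genes are the members, and in each list related to them those at an adjusted p under 0.05 and those with the largest positive and negative value, with the macrophage markers, of which 1 is not reported here, and the highest neutrophil gene. Lists of other cell types are given as sums.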

Additional observations from a re-analysis of the deposited data

How the results depend on the processing

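Against 15 genes called, DESeq2 called 154, a fit with no filter on low values 188, a minimum of 10 counts per library 32, age as a covariate 58 and an adjusted p under 0.05 with no limit on the fold 84. Leaving out 1 library gave 1 (without Lyve-1- replicate 3) to 81 calls, and leaving out both libraries numbered 3, chosen after the data were seen, gave 0. The member called with no filter was 1, *S100a9*. Of the 9 members, 4 had an unadjusted p under 0.05, against 1027 of 13348 genes. With 1 library left out this ran from 1 member (without Lyve-1+ replicate 3, against 1109 of 15523 genes) to 5. The 5 came without Lyve-1+ replicate 2 (988 of 14963 genes), and it was 2 without Lyve-1- replicate 1 (1022 of 15388 genes). Without both libraries numbered 3 it was 0 members, against 1507 of 13336 genes. In that fit *S100a8* and *S100a9* had log2 fold changes of 1.65 and 1.68. The causes of these shifts were not tested.

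*S100a4*, *S100a6*, *S100a8* and *S100a9* kept their direction in all 18 alternative fits and *Lyz1* in all 17 that gave it. With 1 library left out, *Ly6c2* ran from -3.46 to 0.96, *Plac8* from -0.31 to 0.32, *Vcan* from -0.38 to 1.08, *Lyz2* from -0.24 to 0.18, *Treml4* from -0.35 to 1.34, *Ly6c1* from -0.0359 to 3.19, *Fcgr1* from -0.27 to 0.89, *Itgam* from -0.0694 to 0.32 and the age value of *Lyz1* from -0.34 to 0.13. Directions also turned for *Vcan* with age as a covariate (-0.0146), and in the 10-week libraries alone for *Lyz2* (0.24), *S100a11* (0.0310) and *Fcgr1* (-0.20). Without both libraries numbered 3 they turned for *Plac8* (0.26), *Vcan* (-0.30) and *Ly6c1* (-0.55). Subtracting a background estimated from olfactory receptor genes, also chosen after the data were seen, turned no member. The adjusted p of *Ly6e* was 0.0530 with total library sizes, 0.0501 after that subtraction and 0.376 without both libraries numbered 3, and that of *F13a1* was 0.376 in the last of these.

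Over all genes, same-numbered libraries did not deviate together (correlations of -0.05, 0.00 and -0.15 over 13348 genes), and the numbers were not taken to pair them. These correlations cannot exclude that same-numbered libraries share mice. The largest of all, 0.16, joined Lyve-1- library 3 and Lyve-1+ library 1, with the most olfactory receptor genes counted (651 and 370). *Ly6c2*, *Chil3* and *Ms4a4c* were high in libraries 2 of both subsets. A fit with the replicate number as a block called 140 genes, and 270 (2.02%) had an adjusted p under 0.05, among them *S100a4* (log2 fold change -1.18, adjusted p = 0.0278) and *S100a9* (2.22, adjusted p = 0.0156). Among the other genes named, *Cxcr2* (0.0309), *Mmp9* (0.0427), *Tlr4* (0.0441), *Cd44* (0.0295) and *Ccr2* (0.0156) also passed an adjusted p of 0.05 under the block. For *Ly6c2*, whose libraries numbered 2 were high in both subsets, the block took the SE from 1.39 to 0.54, with a log2 fold change of -1.24 (adjusted p = 0.399).

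The common biological coefficient of variation over all 13348 genes was 0.931. It is not that of each member, since the SEs of their log2 fold changes ran from 0.23 (*Lyz2*) to 1.39 (*Ly6c2*). With 3 pools per subset, an adjusted p near 1 does not show equal levels. The low counts of *S100a8* limit its precision.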
